A study of Mus musculus with 19 samples.

Results

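Tumour-bearing spleens from mice with Rosa26-HGAL and Aid-Cre (genotype label Rosa26-HGAL+Aid-Cre) were compared with tumour-bearing spleens from mice with Rosa26-HGAL and Sca1-Cre (Rosa26-HGAL+Sca1-Cre). The members were the arrays whose titles name a tumour and 1 of these genotypes: 4 Aid-Cre and 4 Sca1-Cre arrays, 8 of the 19 in the series. The series follows lymphoma in mice that express HGAL conditionally, with 3 Cre lines beside wild type. Both groups share the conditional HGAL allele at the Rosa26 locus and differ by the Cre line. Total RNA came from whole spleen, and the mice were kept in a conventional facility where common pathogens circulate. Arrays of 3 wild-type spleens serve below as a level of reference, and spleens taken before tumours arose stayed outside the comparison. Arrays within a group are labelled as biological replicates, while age, strain and sex are not stated in their labels. The labels also do not say which spleen cells had recombined the allele, how much of each spleen was tumour, or whether the tumours of 1 line share an origin. In RNA from a whole spleen, fewer cells of a type and less RNA per cell cannot be told apart.

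HGAL is an adaptor protein of germinal centre B cells, the B cells that mutate and select their antibody genes during an immune response. It binds the kinase Syk and adjusts signalling from the B cell receptor, and it acts on the small GTPase RhoA and so on cell movement; its mouse counterpart is Gcsam. Sca1, for which the Sca1-Cre line is named, is the product of Ly6a and sits on the surface of blood-forming stem cells and of some mature lymphocytes.

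All values are log2 expression after RMA, a method that corrects background, equalises arrays and summarises the probes of a transcript. Differences are Aid-Cre minus Sca1-Cre on the log2 scale, each with its standard error (SE) from limma, so a negative value means lower in Aid-Cre. Markers of splenic B cells were well above background: the B cell receptor chain Cd79a read 11.02, 8.97, 12.34 and 12.11 in Aid-Cre replicates 1 to 4 and 12.15, 11.75, 9.72 and 11.53 in Sca1-Cre replicates 1 to 4. The 40th percentile of all values was 4.80 to 4.90 in the Aid-Cre arrays and 4.72 to 4.77 in the Sca1-Cre arrays, without overlap, and a group mean under 4.72 is called near background. Y-linked and Xist signal marked 1 of 4 Aid-Cre arrays (replicate 3) and 2 of 4 Sca1-Cre arrays (replicates 2 and 4) as male. The 3 wild-type arrays were all male by that signal, so levels beside wild type also set female arrays against male ones. Correlations over all genes ran from 0.929 to 0.989 within Aid-Cre, from 0.971 to 0.984 within Sca1-Cre and from 0.935 to 0.989 between the groups. H2-Ea, a class II gene that some inbred strains do not make, was near background in all 8 arrays, at 3.72 to 4.29. In the other arrays of the series it ran from 3.71 to 4.22 in wild type and from 4.01 to 10.79 in Mb1-Cre tumours. Sca1-Cre pre-tumoral spleens lay at 10.31 to 10.65.

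The tumours of the Cre lines differed in few genes past the threshold. Of 22180 genes tested, limma called 10 (0.0451%) at an adjusted p under 0.05: 9 were lower in Aid-Cre (0.0406%) and 1 was higher (0.00451%). The lower genes were the noncoding transcript BC064078, the amino acid transporter Slc7a7, the inflammatory caspase Casp4, the coat protein Sec24d, the paraoxonase Pon3, the membrane protein Itm2c, the vesicle fusion protein Vamp7, the tubulin Tuba1a and the chaperone Hspa13. The higher gene was the microRNA gene Mir301b. BC064078 and Mir301b lie outside the rule by which genes were named and were picked once their values had been seen. An unadjusted p under 0.05 was reached by 1756 genes on the lower side (7.92%) and 1262 on the higher side (5.69%), and the median difference over all genes was 0.01. With only the 8 compared arrays in the fit limma made 0 calls (2155 genes had an unadjusted p under 0.05), and in runs that left out 1 array the count was 4, 3, 229 and 1 without Aid-Cre replicates 1, 2, 3 and 4, and 9, 43, 1 and 1 without Sca1-Cre replicates 1, 2, 3 and 4. After quantile normalization there were 6 calls and after median centring 8. Adjusting for sex gave 2 calls, and the count was 10 within female arrays, of which 1 was among the 10 named above, and 0 within male arrays.

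**Figure D1:**
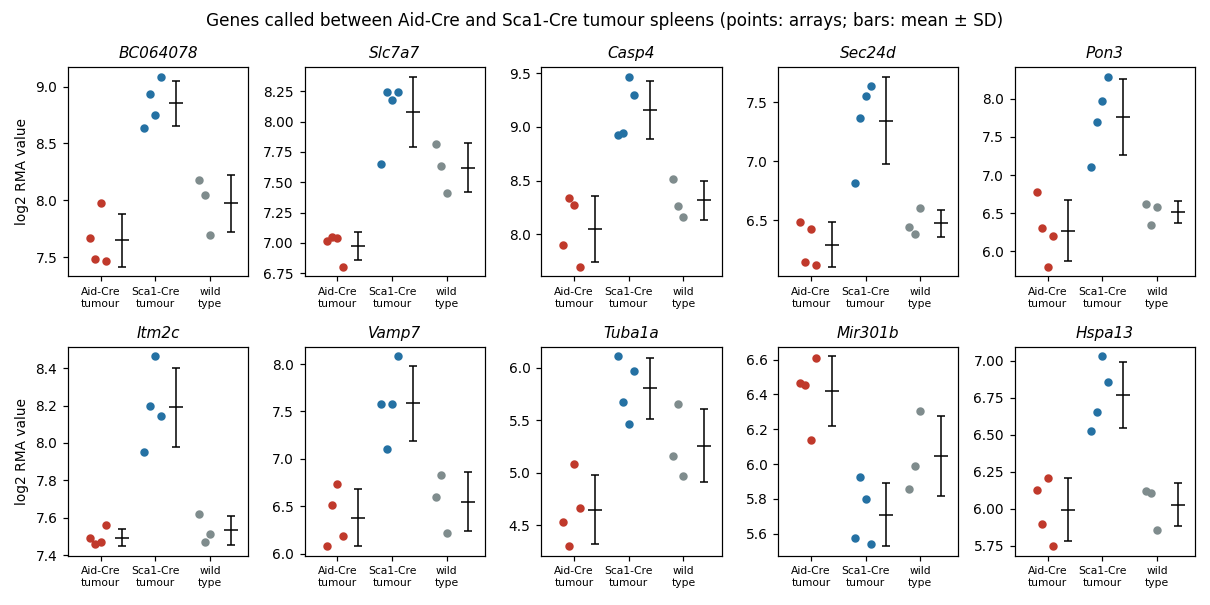
Log2 RMA values (vertical axes) of the 10 called genes in the 4 Aid-Cre tumour, 4 Sca1-Cre tumour and 3 wild-type arrays; points are arrays and bars are the mean ± SD. In each panel the Aid-Cre points lie entirely below the Sca1-Cre points, except for Mir301b, where they lie entirely above.

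Slc7a7, a subunit of a transporter of basic amino acids, read 7.02, 7.04, 7.04 and 6.80 in the Aid-Cre arrays and 7.65, 8.24, 8.18 and 8.24 in the Sca1-Cre arrays. Sca1-Cre replicate 1 was the lowest of its group and still stood above every Aid-Cre array. Slc7a7 was 2.15-fold lower in Aid-Cre (a difference of -1.10 ± 0.14, limma adjusted p = 0.00821). Wild-type arrays ran from 7.41 to 7.81, and all 4 Aid-Cre arrays lay below them. BC064078 had the smallest p, with 7.67, 7.49, 7.97 and 7.47 in Aid-Cre against 8.64, 8.93, 8.75 and 9.09 in Sca1-Cre (-1.20 ± 0.14, limma adjusted p = 0.00284). Its wild-type values of 7.70 to 8.18 lay below all Sca1-Cre arrays and among or above the Aid-Cre arrays.

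Casp4, which senses bacterial lipopolysaccharide inside cells and can trigger inflammatory cell death, read 7.90, 8.33, 8.27 and 7.69 in Aid-Cre and 8.92, 8.94, 9.47 and 9.30 in Sca1-Cre. The groups did not overlap and differed by -1.11 ± 0.17 (limma adjusted p = 0.0281), while wild type ran from 8.16 to 8.52. Its neighbour in function Casp1, the caspase that matures interleukin 1 beta, was not called: it read 8.33, 8.32, 9.33 and 8.54 against 9.52, 9.35, 9.89 and 9.61 (-0.96 ± 0.22, limma adjusted p = 0.093) and was chosen after its values were seen. Pon3, a paraoxonase that limits lipid oxidation, had the largest called difference, -1.49 ± 0.23, or 2.81-fold (limma adjusted p = 0.0281). Pon3 values of 6.77, 6.31, 5.80 and 6.20 in Aid-Cre stood below 7.10, 7.69, 7.97 and 8.29 in Sca1-Cre, and wild type at 6.35 to 6.62 was within the Aid-Cre range.

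Sec24d, a cargo adaptor of the COPII coat that buds vesicles from the endoplasmic reticulum, read 6.49, 6.15, 6.43 and 6.12 in Aid-Cre and 6.82, 7.37, 7.55 and 7.64 in Sca1-Cre (-1.05 ± 0.16, limma adjusted p = 0.0281). Vamp7, which drives fusion of late endosomes and lysosomes, read 6.08, 6.52, 6.74 and 6.19 against 7.58, 7.10, 7.57 and 8.08 (-1.20 ± 0.20, limma adjusted p = 0.0386). Itm2c, a membrane protein that is abundant in plasma cells, was tight in Aid-Cre at 7.50 ± 0.05 (SD, n = 4) and higher in Sca1-Cre at 8.19 ± 0.21 (SD, n = 4; -0.69 ± 0.11, limma adjusted p = 0.029). No array of one group reached the other group in these 3 genes. Hspa13, a chaperone associated with endoplasmic reticulum membranes, averaged 5.99 ± 0.21 against 6.77 ± 0.22 (SD, n = 4 each; -0.77 ± 0.13, limma adjusted p = 0.0413). Tuba1a, an alpha tubulin, was near background in Aid-Cre, at 4.65 ± 0.33 against 5.81 ± 0.29 in Sca1-Cre (SD, n = 4 each; limma adjusted p = 0.0386), so its difference of -1.16 is not exact.

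Set beside wild type, the 9 lower genes had a common order. The wild-type mean lay between the means of both tumour groups in 9 of 9. In 7 of these genes every Sca1-Cre array was above every wild-type array, and in 1, Slc7a7, every Aid-Cre array was below every wild-type array. These counts describe levels and were not tested, since the genes were chosen by their difference between the tumour groups.

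Among the Cre-related genes the host locus of the transgene stood apart. Gt(ROSA)26Sor, the noncoding transcript of the Rosa26 locus, read 5.87, 6.47, 6.13 and 5.61 in Aid-Cre and 7.82, 7.80, 7.55 and 7.30 in Sca1-Cre. Every Aid-Cre array was below every Sca1-Cre array, and wild type at 6.21 to 6.72 overlapped the Aid-Cre values and lay below all Sca1-Cre values. The difference of -1.60 ± 0.33, or 3.03-fold, was not called by limma over all genes (adjusted p = 0.0728). Its exact two-sided permutation p over 4 against 4 arrays was 0.02857, the smallest that 70 splits can give. Every gene whose groups do not overlap gets this p, and 6.01% of all genes did not overlap. It thus adds nothing to the separation given above. In the other groups Gt(ROSA)26Sor ran from 5.56 to 7.41 in 5 Mb1-Cre tumours and from 7.50 to 8.11 in 3 Sca1-Cre pre-tumoral spleens. This transcript is not HGAL itself, and the human transgene was not analysed here. Cd79a, the gene for which Mb1-Cre is named, differed by -0.18 ± 0.61 (limma adjusted p = 0.921; exact permutation p = 0.8286), with wide spread in both groups; the sign turned in some alternatives. Ly6a, for which Sca1-Cre is named, was not analysed here.

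**Figure D2:**
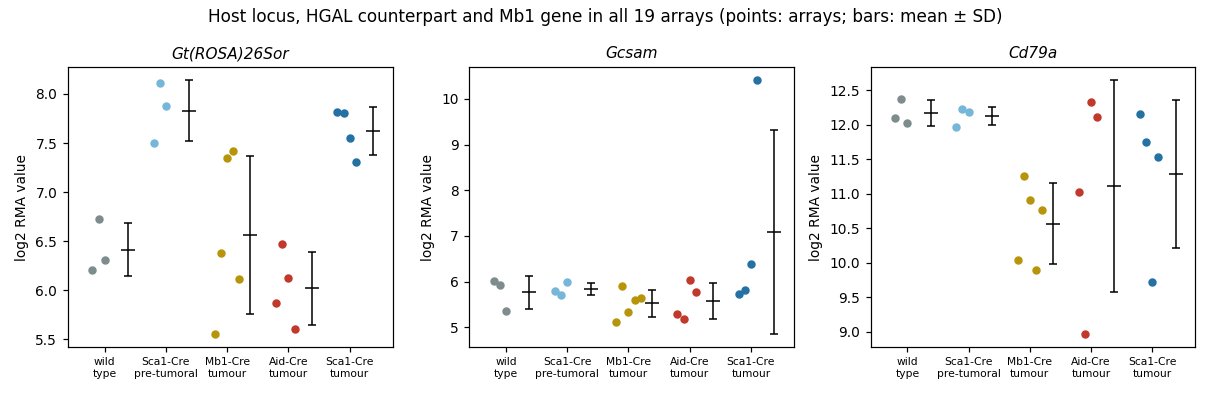
Log2 RMA values (vertical axes) of Gt(ROSA)26Sor, Gcsam and Cd79a in all 19 arrays by group; points are arrays and bars are the mean ± SD. For Gt(ROSA)26Sor the 4 Aid-Cre tumours sit between 5.61 and 6.47 and the 4 Sca1-Cre tumours between 7.30 and 7.82, and for Gcsam a single Sca1-Cre array stands at 10.41.

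Gcsam, the mouse counterpart of HGAL, read 5.29, 5.19, 6.04 and 5.77 in Aid-Cre and 5.74, 5.82, 6.38 and 10.41 in Sca1-Cre. Only Sca1-Cre replicate 4 was high, and the other 7 arrays lay within 5.19 to 6.38. The difference of -1.51 ± 0.70 was not called (limma adjusted p = 0.358; exact permutation p = 0.1429) and was -0.41 without that array. Of the partners, Grb2, an adaptor that links receptors to Ras, differed by -0.53 ± 0.15 (limma adjusted p = 0.144). Syk at 0.07, Rhoa at -0.10 and the RhoA activator Arhgef1 at 0.08 had limma adjusted p-values of 0.952, 0.636 and 0.912. Each of these 3 changed sign in some alternatives.

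T cell genes were on the lower side in Aid-Cre tumours, with 0 members called. Cd4, the coreceptor of helper T cells, had the largest difference among protein-coding genes whose groups did not overlap: it read 7.31, 6.40, 8.94 and 8.07 in Aid-Cre against 10.16, 9.15, 10.06 and 9.52 in Sca1-Cre (-2.04 ± 0.43, or 4.12-fold; limma adjusted p = 0.0743). In the T cell identity list 15 of 15 measured members were lower, with a median of -0.80 beside 0.01 over all genes, and 7 had an unadjusted p under 0.05 against 7.92% of all genes. The groups did not overlap in 1 of them, against 2.96% of all genes on the lower side. Cd3g, a chain of the T cell receptor complex, averaged 9.13 ± 1.37 against 10.87 ± 0.64 (SD, n = 4 each; -1.75 ± 0.52, limma adjusted p = 0.175), and its sister chain Cd3e differed by -1.34 ± 0.47 (limma adjusted p = 0.229). The receptor kinase Zap70 was next by p, at -0.81 ± 0.30 (limma adjusted p = 0.248). Cd8a and Cd8b1, the coreceptor chains of cytotoxic T cells, stood at -0.74 ± 0.61 and -0.83 ± 0.57, with limma adjusted p-values of 0.623 and 0.544.

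The level of T cell transcripts differed between Aid-Cre arrays. The T cell identity score, the mean over members minus the wild-type mean, was -0.83, -1.69, 0.40 and 0.08 in Aid-Cre replicates 1 to 4 and 0.77, -0.05, 0.82 and 0.10 in Sca1-Cre replicates 1 to 4. Aid-Cre replicates 1 and 2 were thus lowest, while replicates 3 and 4 lay within the Sca1-Cre range. Without Aid-Cre replicate 2 the median difference was -0.34. Within female arrays it was -1.42, and within male arrays, 1 Aid-Cre against 2 Sca1-Cre, it was 0.39, with the sign turned.

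Genes of T follicular helper cells, which help germinal centre B cells, and of checkpoint receptors had the lowest median of the 40 lists, at -0.94. Of 17 measured members 16 were lower, 8 had an unadjusted p under 0.05 (7.92% of all genes on the lower side) and 4 did not overlap (2.96% of all genes). Icos, a costimulator needed by these helper cells, read 6.73, 6.02, 7.36 and 7.32 in Aid-Cre and 7.72, 7.53, 8.92 and 8.78 in Sca1-Cre (-1.38 ± 0.36, limma adjusted p = 0.121). The adaptor Sh2d1a read 6.44, 5.84, 6.79 and 6.56 against 7.53, 7.16, 8.53 and 7.35 (-1.24 ± 0.32, limma adjusted p = 0.113). Both genes separated the groups completely. Il21, the cytokine these cells give to B cells, differed by -1.48 ± 0.44; it was highest in Sca1-Cre replicate 4, at 8.01, and the other Sca1-Cre arrays ran from 5.31 to 6.05 against 4.21 to 5.15 in Aid-Cre. The transcription factor Tox stood at -1.41 ± 0.42 and the inhibitory receptor Pdcd1 at -1.56 ± 0.53, with Sca1-Cre replicates 3 and 4 highest in both. Scores of this list were -0.20, -0.52, 0.39 and 0.18 in Aid-Cre against 0.52, 0.37, 1.21 and 1.25 in Sca1-Cre, and the within-sex medians were -1.13 in females and -0.46 in males.

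Regulatory T cell genes were lower in 11 of 12 members, with a median of -0.60. Of them 5 had an unadjusted p under 0.05, against 7.92% of all genes on the lower side, and 2 did not overlap, against 2.96%. The median was -0.40 without Sca1-Cre replicate 3, -0.70 within females and -0.27 within males. The integrin Itgae read 5.86, 5.39, 5.83 and 5.93 against 6.49, 6.10, 6.57 and 6.80 (-0.74 ± 0.18, limma adjusted p = 0.106), and the coreceptor Nrp1 stood at -0.73 ± 0.20 (limma adjusted p = 0.127). Foxp3, the factor that defines these cells, differed less, by -0.42 ± 0.27 (limma adjusted p = 0.51), and its groups overlapped. Its Aid-Cre values were 7.20, 6.87, 7.76 and 7.67 and its Sca1-Cre values 7.66, 7.29, 8.05 and 8.21.

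The cytotoxic and NK cell list was mixed. Of 16 members 11 were lower and 5 higher, with a median of -0.66. An unadjusted p under 0.05 was reached by 7 lower members and 1 higher member, against 7.92% and 5.69% of all genes. On the lower side the chemokine Ccl5 read 10.08, 10.88, 11.14 and 10.76 against 11.84, 11.52, 13.08 and 11.62 (-1.30 ± 0.44, limma adjusted p = 0.219), and the T-box factors Tbx21 and Eomes stood at -0.81 ± 0.27 and -1.26 ± 0.48. On the higher side were NK receptor genes: Klrb1c, which encodes the NK1.1 antigen in some strains, was higher by 1.12 ± 0.23, Klre1 by 0.47 ± 0.32 and Ncr1 by 0.30 ± 0.43, none of them called. Klrb1c read 5.11, 5.60, 5.30 and 5.68 in Aid-Cre and 4.31, 4.42, 4.06 and 4.44 in Sca1-Cre (limma adjusted p = 0.0728), where the Sca1-Cre mean was near background. The within-sex medians of the whole list were -1.13 in females and 0.16 in males.

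**Figure D3:**
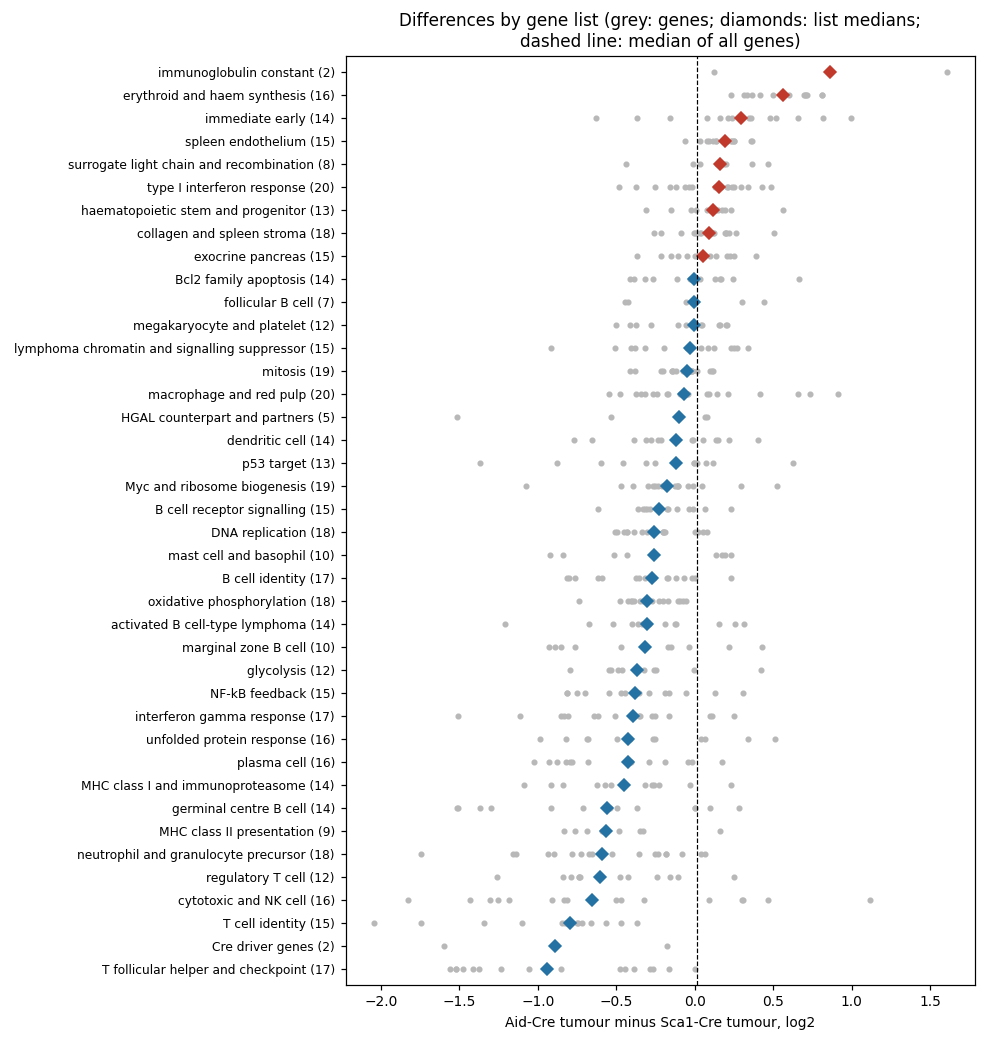
Differences between Aid-Cre and Sca1-Cre tumours (horizontal axis, log2) for 40 gene lists, with the number of measured genes in brackets; grey points are genes, diamonds are list medians and the dashed line is the median of all genes at 0.01. Of the lists 31 have a median below 0 and 9 above, from -0.94 for T follicular helper and checkpoint genes to 0.86 for the 2 immunoglobulin constant genes.

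Genes of protein export and folding were also on the lower side. The unfolded protein response list holds genes induced when folding in the endoplasmic reticulum is overloaded. Of its 16 measured members 12 were lower, with a median of -0.43, and 0 were called. Of those lower, 9 had an unadjusted p under 0.05, against 7.92% of all genes on the lower side. The groups did not overlap in 2, against 2.96% of all genes. Edem1, which sends misfolded proteins to degradation, read 9.28, 9.11, 9.58 and 9.15 in Aid-Cre and 9.83, 9.65, 10.38 and 9.99 in Sca1-Cre (-0.68 ± 0.15, limma adjusted p = 0.0822) with no overlap. Sdf2l1 stood at -0.99 ± 0.23, the degradation adaptor Sel1l at -0.50 ± 0.13 and the disulfide isomerase Pdia6 at -0.69 ± 0.21. Xbp1, the factor that drives much of this programme in plasma cells, differed by -0.42 ± 0.18 (limma adjusted p = 0.33). Of the 4 members on the higher side, the factor Atf4 stood at 0.34 ± 0.17 and its target Ddit3 at 0.51 ± 0.34, neither called, with Ddit3 at 9.28 in Aid-Cre replicate 2 and at 7.16 to 7.40 in the other 3 Aid-Cre arrays. List scores were 0.10, -0.01, 0.05 and -0.08 in Aid-Cre and 0.11, 0.31, 0.56 and 0.41 in Sca1-Cre, so only Sca1-Cre replicate 1 came near the Aid-Cre arrays. The within-sex medians were -0.40 in females and -0.33 in males.

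Promoters of 14 of these 16 genes, and of 6 of the 10 called genes, were in the RefSeq table (GRCm38.p6). The endoplasmic reticulum stress element, CCAAT and CCACG 9 bases apart, was found in 5 of the 14 list promoters (Creld2, Dnajc3, Hsp90b1, Hspa5 and Pdia6) and in 0.119% of all 32851 promoter windows. It was found in 0 of the 11 promoter windows of the called genes. The Xbp1-type element TGACGTGG was found in 0 of the 14 and in 0.676% of all windows; the 1 called gene that held it was Sec24d. Both elements were searched on both strands. No promoter of these genes holds both elements. The 4 promoters below belong to Sec24d, which was called, and to the 3 genes with the stress element whose unadjusted p was under 0.05: Pdia6 at -0.69 ± 0.21, Creld2 at -0.82 ± 0.25 and Dnajc3 at -0.44 ± 0.16. Each runs from 250 bases before to 50 bases after the start of transcription, 5′ to 3′ on the gene's strand, with the letters of the element in capitals. A match describes these letters and is no evidence of binding. Hspa5 and Hsp90b1 also hold the stress element but did not have an unadjusted p under 0.05 and are not shown. The promoters shown were thus picked by p and do not stand for all genes with the element.
Sec24d promoter, chr3:123267246-123267545, plus strand: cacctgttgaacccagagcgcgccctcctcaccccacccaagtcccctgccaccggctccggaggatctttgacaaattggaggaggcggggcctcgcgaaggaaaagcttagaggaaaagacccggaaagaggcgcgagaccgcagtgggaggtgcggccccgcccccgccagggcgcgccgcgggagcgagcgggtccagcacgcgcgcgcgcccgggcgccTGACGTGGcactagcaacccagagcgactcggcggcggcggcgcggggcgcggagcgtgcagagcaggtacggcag
Pdia6 promoter, chr12:17266339-17266638, plus strand: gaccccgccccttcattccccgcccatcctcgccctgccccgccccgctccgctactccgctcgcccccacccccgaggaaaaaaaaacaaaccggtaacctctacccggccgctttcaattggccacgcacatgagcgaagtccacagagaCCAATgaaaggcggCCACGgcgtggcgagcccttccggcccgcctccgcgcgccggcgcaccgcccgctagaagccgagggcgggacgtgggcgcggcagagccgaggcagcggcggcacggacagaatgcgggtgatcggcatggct
Creld2 promoter, chr15:88819396-88819695, plus strand: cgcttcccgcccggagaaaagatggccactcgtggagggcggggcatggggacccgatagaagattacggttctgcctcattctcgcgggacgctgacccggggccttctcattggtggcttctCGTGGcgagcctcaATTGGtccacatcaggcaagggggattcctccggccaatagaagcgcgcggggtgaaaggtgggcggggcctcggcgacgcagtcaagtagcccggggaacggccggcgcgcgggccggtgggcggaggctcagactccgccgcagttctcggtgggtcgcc
Dnajc3 promoter, chr14:118937682-118937981, plus strand: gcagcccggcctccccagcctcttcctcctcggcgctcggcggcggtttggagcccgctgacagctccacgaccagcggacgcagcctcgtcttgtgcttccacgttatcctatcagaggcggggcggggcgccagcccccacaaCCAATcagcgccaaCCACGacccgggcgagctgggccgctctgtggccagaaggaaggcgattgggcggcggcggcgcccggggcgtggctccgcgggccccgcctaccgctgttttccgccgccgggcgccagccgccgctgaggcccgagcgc

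In the plasma cell list 15 of 16 members were lower (median -0.43). Of them 9 had an unadjusted p under 0.05, against 7.92% of all genes on the lower side, and 3 did not overlap, against 2.96%. This list shares Edem1, Creld2 and Xbp1 with the unfolded protein response list and Cd28 with the T cell list, so these counts are not separate. Mzb1, a chaperone of antibody assembly, read 8.55, 7.07, 8.84 and 8.53 against 9.24, 9.02, 8.89 and 9.56 (-0.93 ± 0.29, limma adjusted p = 0.19). Txndc5 stood at -0.88 ± 0.27 and the surface receptor Slamf7 at -1.03 ± 0.36. Of 12 listed antibody constant genes 2 were analysed here: Ighg3 was higher by 1.61 ± 0.67 (limma adjusted p = 0.313), with 11.18, 7.74, 9.23 and 10.21 in Aid-Cre against 8.69, 8.01, 6.01 and 9.22 in Sca1-Cre and overlapping groups, and Ighm differed by 0.12 ± 0.11.

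Antigen processing for MHC class I was lower in 13 of 14 members, with a median of -0.45. An unadjusted p under 0.05 was reached by 7 members, against 7.92% of all genes on the lower side. The groups did not overlap in 2 members, against 2.96% of all genes. The immunoproteasome subunits led the list. Psmb9 read 8.08, 7.53, 8.34 and 8.29 in Aid-Cre and 8.72, 8.77, 9.53 and 9.57 in Sca1-Cre (-1.09 ± 0.26, limma adjusted p = 0.0944). Psmb8 (-0.92 ± 0.23, limma adjusted p = 0.108) separated the groups as well, while Psmb10 at -0.84 ± 0.24 and the proteasome activator Psme1 at -0.53 ± 0.15 overlapped. These subunits are induced by interferon gamma, whose own response list was lower in 14 of 17 members (median -0.39). Of them 4 had an unadjusted p under 0.05, against 7.92% of all genes on the lower side. Ifng stood at -1.18 ± 0.47 and its target Cxcl9 at -1.51 ± 0.67, both highest in Sca1-Cre replicate 3 at 8.19 and 10.40. The interferon gamma score was 1.24 in that array, 0.65 in Sca1-Cre replicate 4, and from -0.15 to 0.19 in the other 6 arrays. The type I interferon list had 8 lower and 12 higher of 20 members and 0 at an unadjusted p under 0.05, and its median of 0.16 was -0.16 without Aid-Cre replicate 2.

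NF-kB feedback genes were lower in 13 of 15 members (median -0.38). Of them 6 had an unadjusted p under 0.05, against 7.92% of all genes on the lower side. Bcl3, a nuclear partner of NF-kB, led them at -0.75 ± 0.15 (limma adjusted p = 0.0699), with 7.50, 7.28, 8.08 and 7.61 against 8.23, 8.18, 8.56 and 8.50. The NF-kB median was -0.17 without Aid-Cre replicate 2 and 0.16 within male arrays. Among p53 targets 9 of 13 were lower and 5 had an unadjusted p under 0.05, against 7.92% of all genes on the lower side. The groups did not overlap in 3 lower members and 1 higher member, against 2.96% and 3.05% of all genes. The median of the p53 targets was -0.12, -0.29 without Aid-Cre replicate 2 and 0.071 without Sca1-Cre replicate 3. They included the cyclin Ccng1, which read 9.30, 9.16, 9.78 and 9.18 against 10.19, 9.84, 10.48 and 10.40 (-0.87 ± 0.17, limma adjusted p = 0.0699), and the p53 inhibitor Mdm2 at -0.31 ± 0.10. The death receptor Fas, a p53 target and a germinal centre marker, read 7.38, 6.84, 7.31 and 6.79 in Aid-Cre and 7.84, 8.25, 8.31 and 9.41 in Sca1-Cre (-1.37 ± 0.29, limma adjusted p = 0.0809). In genes of activated B cell-type lymphoma 11 of 14 were lower (median -0.30). Of them 4 had an unadjusted p under 0.05 (7.92% of all genes on the lower side) and 4 did not overlap (2.96% of all genes). The factor Batf stood at -1.21 ± 0.26 (limma adjusted p = 0.0838) and Stat3 at -0.34 ± 0.14. Irf4, which defines that subtype, stood at -0.19 ± 0.43. Without Sca1-Cre replicate 1 this median was -0.13. Bcl2 family genes were split 7 to 7 (median -0.00), and 8 of 15 lymphoma suppressor genes were lower (median -0.03).

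Energy metabolism differed by small amounts. All 18 measured oxidative phosphorylation genes were lower in Aid-Cre, with a median of -0.30, 9 at an unadjusted p under 0.05 (7.92% of all genes) and 4 without overlap (2.96% of all genes). The complex I subunit Ndufs4 read 7.40, 7.68, 7.78 and 7.28 against 8.09, 7.88, 7.90 and 8.17 (-0.48 ± 0.14, limma adjusted p = 0.172), and the cytochrome oxidase subunit Cox7b stood at -0.74 ± 0.23 (limma adjusted p = 0.19). Glycolysis genes were lower in 11 of 12 members, with a median of -0.37. Of them 5 had an unadjusted p under 0.05 (7.92% of all genes) and 0 were without overlap (2.96% of all genes). Tpi1 stood at -0.79 ± 0.36 and Pfkl at -0.47 ± 0.16. The oxidative phosphorylation median was -0.20 without Sca1-Cre replicate 4, whose score of 0.60 was the highest of the 8 arrays.

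Germinal centre B cell genes were led by a single spleen. The list score was 2.04 in Sca1-Cre replicate 4, 0.12 to 0.21 in the other 3 Sca1-Cre arrays and -0.17 to 0.12 in Aid-Cre. In that array Rgs13, a regulator of chemokine signalling in germinal centres, read 10.38 and the factor Mybl1 read 10.60, while the other 7 arrays lay at 3.54 to 4.88 for Rgs13 and at 5.78 to 6.32 for Mybl1. Of 14 members 10 were lower in Aid-Cre (median -0.56), and the median was -0.11 without replicate 4. An unadjusted p under 0.05 was reached by 3 lower members and 1 higher member, against 7.92% and 5.69% of all genes. Bcl6, the factor that sets the germinal centre programme, stood at -0.49 ± 0.29 (limma adjusted p = 0.476). S1pr2, a receptor that holds B cells in the germinal centre, read 7.07, 7.02, 6.96 and 7.15 in Aid-Cre and 7.19, 7.23, 8.08 and 9.37 in Sca1-Cre (-0.92 ± 0.32, limma adjusted p = 0.228), with replicates 3 and 4 highest. Lmo7 had the same shape, at 10.09 in that array and 5.27 to 6.45 in the other Sca1-Cre arrays, against 4.96 to 5.25 in Aid-Cre. Havcr1, also known as TIM-1, was highest there too, at 8.45 against 5.69 to 6.83 in the rest of its group.

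Other B cell lists did not separate the groups. B cell identity had 15 of 17 members lower (median -0.27) and 0 at an unadjusted p under 0.05. Its score was -1.13, -3.14, 0.21 and 0.07 in Aid-Cre and 0.00, -0.34, -1.94 and -0.42 in Sca1-Cre, so the lowest arrays were Aid-Cre replicate 2 and Sca1-Cre replicate 3. Without Aid-Cre replicate 2 the median turned to 0.41. Ms4a1, the CD20 antigen, read 10.15, 8.31, 11.67 and 11.38 against 11.80, 11.43, 9.85 and 11.64 (-0.80 ± 0.59, limma adjusted p = 0.572). MHC class II presentation (8 of 9 lower, median -0.57) had 0 members at an unadjusted p under 0.05 and a median of -0.07 without the same array. B cell receptor signalling (13 of 15 lower, median -0.23, and 0.08 without Aid-Cre replicate 2) had 1 such member, Bcl10. Marginal zone (8 of 10 lower, median -0.32, and 0.029 without Aid-Cre replicate 2) had 2, Mzb1 and Asb2, and follicular B cell genes (4 of 7 lower) had 0. The follicular median of -0.00 ran from -0.58 without Aid-Cre replicate 3 to 0.65 without Aid-Cre replicate 2. Surrogate light chain and recombination genes (6 of 8 higher, median 0.16) had 1, Vpreb2 at 0.36 ± 0.10.

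Neutrophil, erythroid and mitosis genes varied widely within both groups. Neutrophil scores were 1.62, 2.17, -1.74 and -1.68 in Aid-Cre replicates 1 to 4 and -0.31, 1.47, 1.52 and 0.01 in Sca1-Cre, and mitosis scores were 1.02, 1.34, -1.54 and -0.88 against -1.49, 0.57, 0.60 and 0.62. Erythroid scores were 0.98, 1.24, -1.81 and -0.72 against -1.63, 0.52, 0.04 and -1.47. In these 3 lists Aid-Cre replicates 1 and 2 were high and replicates 3 and 4 low, the reverse of their order in the T and B cell scores. The neutrophil marker Ly6g, for example, read 8.89, 8.43, 4.28 and 4.02 in Aid-Cre against 6.87, 8.71, 9.43 and 7.59 in Sca1-Cre (-1.75 ± 1.01, limma adjusted p = 0.464). None of the 18 neutrophil, 16 erythroid or 19 mitosis genes had an unadjusted p under 0.05, with medians of -0.59, 0.56 and -0.05. The neutrophil median ran from -1.26 without Aid-Cre replicate 2 to 0.11 without Aid-Cre replicate 4, and the erythroid median from 0.097 without replicate 2 to 1.13 without replicate 3. The mitosis median ran from -0.58 without Sca1-Cre replicate 1 to 0.46 without Aid-Cre replicate 3. The part of these arrays' makeup in the T cell and secretory differences was not tested.

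**Figure D4:**
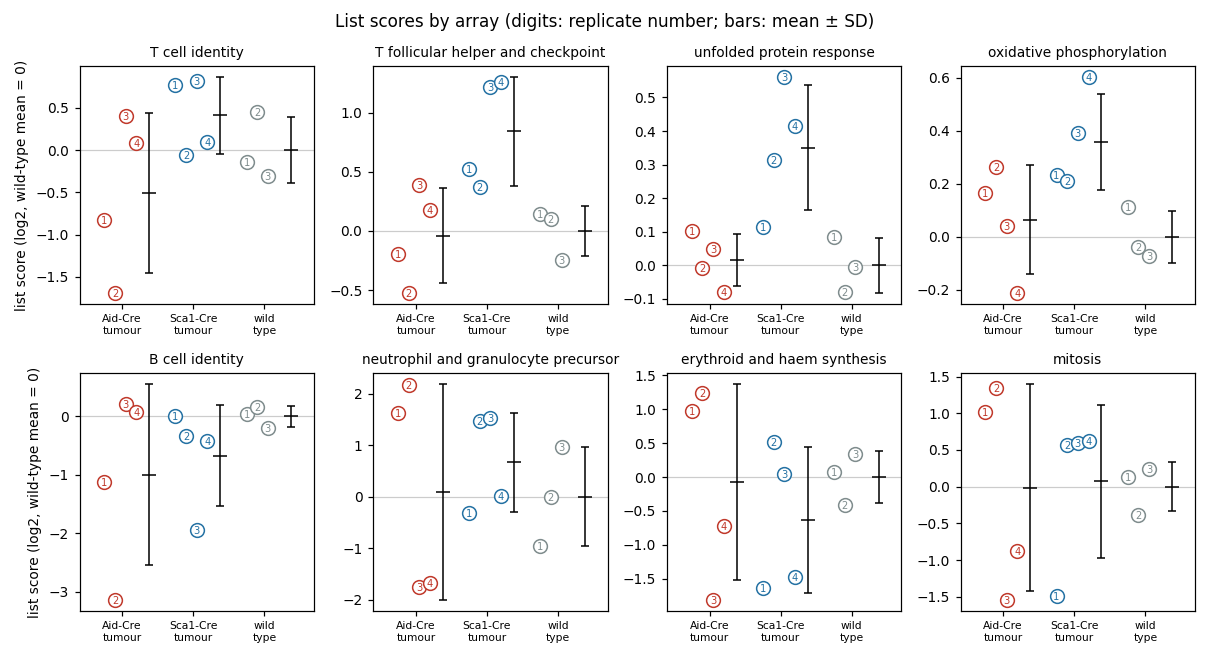
List scores (vertical axes, mean log2 value over the members minus the wild-type mean) by array for 8 lists; circled digits are replicate numbers and bars are the mean ± SD. The T follicular helper scores overlap only between Aid-Cre replicate 3 at 0.39 and Sca1-Cre replicate 2 at 0.37, and in the lower row Aid-Cre replicates 1 and 2 stand apart from replicates 3 and 4.

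The remaining lists had few members at an unadjusted p under 0.05. Macrophage and red pulp (median -0.07), dendritic cell (-0.12), mast cell and basophil (-0.26, and 0.080 without Sca1-Cre replicate 3), megakaryocyte (-0.01), stem and progenitor (0.12) and exocrine pancreas (0.05) lists had 0 or 1 such member. Spleen endothelium was higher in 14 of 15 members (median 0.19), with 2 at that level, Mfap2 at 0.23 ± 0.08 and the lymphatic receptor Flt4 at 0.36 ± 0.12, and collagen and stroma in 14 of 18 (median 0.09) with 1, Col6a1. DNA replication (14 of 18 lower, median -0.26) had 0, and its median ran from -0.61 without Sca1-Cre replicate 1 to -0.042 without Aid-Cre replicate 4. Myc and ribosome biogenesis (16 of 19 lower, median -0.18, and -0.0019 without Sca1-Cre replicate 4) had 1, the nucleolar protein Nop56 at -1.08 ± 0.35. Immediate early genes were higher in 11 of 14 members (median 0.29, 0.064 without Aid-Cre replicate 3 and -0.22 within females) with 0, and their scores were highest in Aid-Cre replicate 3 at 1.41 and Sca1-Cre replicate 1 at 1.21.

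On the higher side no protein-coding gene was called. The genes with the smallest p were Iqsec1, an exchange factor for Arf GTPases, which read 9.27, 9.28, 9.12 and 9.19 in Aid-Cre and 8.73, 8.96, 8.35 and 8.47 in Sca1-Cre (0.59 ± 0.11, limma adjusted p = 0.0699), and Tnnc1, a calcium-binding troponin, at 0.62 ± 0.12. Leng8 (0.61 ± 0.12), the nuclear corepressor Lcor (0.54 ± 0.11), the complement protease C1ra (0.60 ± 0.12), the receptor kinase Mst1r (0.37 ± 0.08), the noncoding Ctrcos (0.52 ± 0.11) and the ubiquitin ligase Ubr4 (0.49 ± 0.11) followed, with limma adjusted p-values from 0.0699 to 0.0881. The groups did not overlap in these 8 genes. Wild-type Iqsec1 at 9.07 to 9.37 and Leng8 at 9.44 to 9.86 lay above every Sca1-Cre array.

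Among protein-coding genes the largest higher differences without overlap were in cytidine deaminases. Apobec1, which edits messenger RNA, read 9.83, 10.68, 10.55 and 10.11 in Aid-Cre and 8.99, 8.87, 9.03 and 9.77 in Sca1-Cre, 2.18-fold higher (1.13 ± 0.24) but not called (limma adjusted p = 0.0736). All 4 Aid-Cre arrays lay above the wild-type range of 8.66 to 9.15. Apobec3, which restricts retroviruses, differed by 1.16 ± 0.46 (limma adjusted p = 0.289). Its values were 10.16, 10.25, 10.67 and 10.37 against 7.99, 9.82, 9.59 and 9.42, with Sca1-Cre replicate 1 lowest, and wild type at 9.98 to 10.86 was on the Aid-Cre side. The clock gene Per1 stood at 1.10 ± 0.26, the noncoding Neat1 at 1.09 ± 0.44 and Mirt1 at 0.89 ± 0.24, and Ap4b1 at 0.74 ± 0.29. Rph3al at 1.10 ± 0.33, the nucleoside enzyme Cda at 0.79 ± 0.22 and the calcium channel Cacna1c at 0.77 ± 0.24 were highest in Aid-Cre replicates 1 and 2, at 7.25 and 8.21 for Rph3al against 6.13 and 6.17 in replicates 3 and 4. Cacna1c was near background in Sca1-Cre. Of all genes 676 were higher without overlap (3.05%) and 656 lower (2.96%), and with a difference of at least 1 as well the counts were 10 (0.0451%) and 73 (0.329%).

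The other genes lower by the largest amounts without overlap were not called. Dpep2, a dipeptidase that converts leukotriene D4, read 9.69, 9.70, 8.37 and 7.67 in Aid-Cre and 10.70, 10.10, 11.26 and 10.32 in Sca1-Cre (-1.74 ± 0.46, limma adjusted p = 0.126). Zdhhc2, a palmitoyltransferase, differed by -1.57 ± 0.34 (limma adjusted p = 0.0881), with Aid-Cre arrays at 5.35 to 5.53 and Sca1-Cre replicates 3 and 4 highest at 7.60 and 8.25. Scimp, an adaptor of antigen-presenting cells, stood at -1.48 ± 0.45 (limma adjusted p = 0.178). The ribosomal protein gene Rps20 read 5.82, 5.10, 6.44 and 5.75 against 8.02, 7.26, 8.01 and 7.73 (-1.98 ± 0.46, limma adjusted p = 0.0944). Its introns hold small nucleolar RNAs in mammals, a class described below. Whether this probe set read the Rps20 messenger RNA or another transcript of the locus was not tested.

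MicroRNA genes leaned to the higher side. MicroRNAs are short RNAs that pair through their seed, bases 2 to 8, with messenger RNAs and reduce their output. Of 478 microRNA genes 51 had an unadjusted p under 0.05 on the higher side (10.7%) and 6 on the lower side, against 5.69% and 7.92% of all genes. Mir301b, the one called, read 6.47, 6.46, 6.14 and 6.61 in Aid-Cre and 5.58, 5.92, 5.80 and 5.54 in Sca1-Cre (0.71 ± 0.12, or 1.63-fold; limma adjusted p = 0.0386), with wild type between at 5.86 to 6.30. Probes of such a gene can read the precursor as well as the mature form, and which was read was not tested. The sequences below show the Mir301b hairpin (chr16:17124400-17124496, minus strand, GRCm38.p6, RefSeq), in which capitals mark the 5p mature form, and the mature forms that RefSeq lists for the 5 higher genes described here, in which capitals mark the seed, to show that their seeds differ.
Mir301b hairpin: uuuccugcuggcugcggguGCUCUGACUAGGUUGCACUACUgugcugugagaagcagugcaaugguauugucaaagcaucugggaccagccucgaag
mmu-miR-301b-5p: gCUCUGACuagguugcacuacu
mmu-miR-5123: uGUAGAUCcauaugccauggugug
mmu-miR-505-5p: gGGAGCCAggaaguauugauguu
mmu-miR-505-3p: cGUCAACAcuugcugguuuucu
mmu-miR-339-5p: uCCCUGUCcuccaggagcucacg
mmu-miR-339-3p: uGAGCGCCucggcgacagagccg
mmu-miR-185-3p: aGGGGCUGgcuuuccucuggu
Mir5123 (9.02 ± 0.07 against 7.99 ± 0.35, SD, n = 4 each; 1.03 ± 0.23), Mir505 (1.01 ± 0.23), Mir339 (0.77 ± 0.16) and Mir185 (0.54 ± 0.13) were higher and Mir3088 (-0.43 ± 0.10) lower with limma adjusted p-values between 0.0728 and 0.0948, and none was called. With Mir301b these 6 genes were chosen after their values were seen, as those under an adjusted p of 0.1. The 9 mature sequences that RefSeq lists for them have 9 seeds, and no seed was shared. Only the 5p form of Mir301b and the 3p form of Mir185 are listed. Seeds of mature forms that are not listed were not compared.

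Small nucleolar RNAs (snoRNAs), which guide modification of ribosomal RNA, were lower in Aid-Cre in 79 of 80 genes, with a median of -0.78, which was -1.11 within females and -0.35 within males. An unadjusted p under 0.05 was reached by 51 of them (63.7%, against 7.92% of all genes), all lower, and 40 did not overlap between the groups, against 2.96% of all genes, but 0 were called. Snord90 read 5.07, 4.69, 4.40 and 4.06 against 6.13, 5.71, 6.77 and 6.01 (-1.60 ± 0.33, limma adjusted p = 0.0736), with the Aid-Cre mean near background, and Snora69 read 8.37, 7.91, 9.26 and 8.38 against 11.20, 9.81, 11.34 and 10.17 (-2.15 ± 0.51, limma adjusted p = 0.0944). The median snoRNA level relative to wild type was -0.93, -1.29, -0.54 and -0.84 in Aid-Cre and 0.15, -0.25, 0.09 and -0.01 in Sca1-Cre, without overlap, while the wild-type arrays themselves ran from -0.40 to 0.51. The Y RNAs, small noncoding RNAs bound by Ro60, followed: Rny1 stood at -1.79 ± 0.43 and Rny3 at -1.88 ± 0.44 (limma adjusted p = 0.0948 and 0.0944). Long noncoding RNAs had 160 of 1926 genes at an unadjusted p under 0.05 on the higher side (8.31%) and 36 on the lower side (1.87%). Their median difference was 0.06, and the part of the higher Aid-Cre array medians in it was not tested. With the snoRNA level of each array as a covariate limma made 0 calls, and 1038 genes rather than 3018 had an unadjusted p under 0.05. The part of this class-wide shift, which moves with the groups, in the other differences was not tested.

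**Figure D5:**
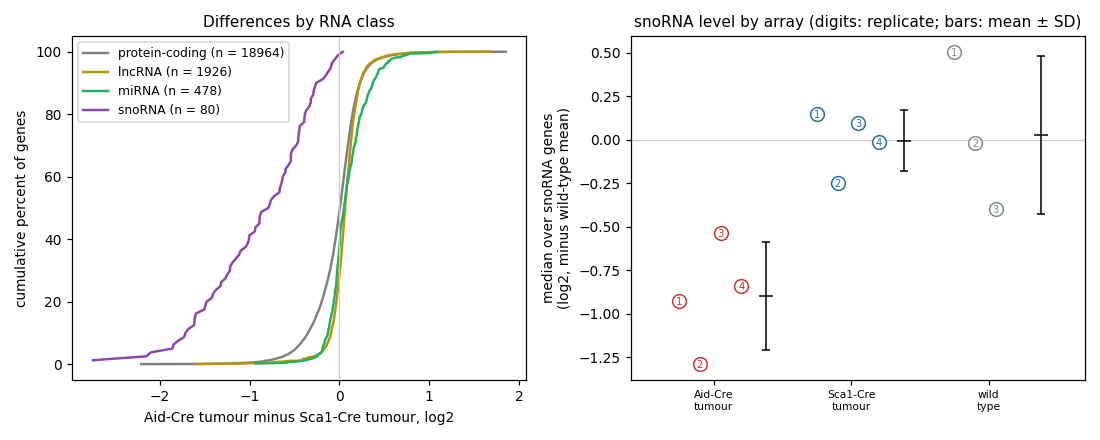
Left, cumulative percent of genes (vertical axis) by difference between Aid-Cre and Sca1-Cre tumours (horizontal axis, log2) for 4 RNA classes. Right, the median over 80 snoRNA genes relative to the wild-type mean (vertical axis, log2) by array, with circled replicate numbers and mean ± SD bars. The snoRNA curve lies to the left of the others, and all 4 Aid-Cre arrays, at -0.54 or lower, lie below all Sca1-Cre arrays, at -0.25 or higher.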

How the data were processed

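The authors deposited log2 expression values for 19 arrays of whole-transcript design; per the submitters' processing notes they were made with RMA in the R package oligo, with no version or genome build named. Values ran from 2.23 to 13.84 and were used as deposited. The distributions of the deposited arrays are close but not equal: medians were 5.33, 5.30, 5.35 and 5.40 in Aid-Cre replicates 1 to 4 and 5.23, 5.28, 5.26 and 5.28 in Sca1-Cre, without overlap. Quantile normalization and median centring were therefore run as alternatives. Of 41345 probe sets 23521 carried 1 gene symbol, 1814 several and 16010 none; the first were kept, and the probe set with the highest mean stood for each of 1082 genes with several, which left 22180 genes. The number of arrays limits the precision, and depth has no counterpart here.

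One limma 3.58.1 fit (R 4.3.3) of 5 group means over all 19 arrays gave the difference between Aid-Cre and Sca1-Cre tumours; the other 11 arrays contribute only to the shared spread. P-values were adjusted by the Benjamini-Hochberg method over all genes, called means an adjusted p under 0.05, and the procedure was tested on simulated data. Exact permutation p-values are two-sided over 70 splits. Genes were named by rule: Gcsam, its partners and the Cre genes; up to 15 called genes in each direction, or the 10 with the smallest p where fewer than 5 were called; the 10 largest differences without overlap in each direction; and, in a described list, up to 4 members with the smallest p and its defining members. The steps that pick called genes and largest differences left out predicted genes, small RNAs, antigen receptor segments, olfactory and vomeronasal receptors and sex-linked genes. They also left out genes with neither group mean above 5.03, the 40th percentile over all genes and arrays. The comparison, gene lists and rules were chosen with earlier results of these data known. Replicate numbers do not pair the groups. Alternatives covered normalization, filters on dim genes, probe set choice, the arrays fitted, weights, sex, a replicate block and leaving out arrays. Lyn and Ly6a were not analysed here. Sequences come from RefSeq (GRCm38.p6). Python 3.11.15 with pandas 2.3.3 and matplotlib 3.10.9 drew the figures.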

Additional observations from a re-analysis of the deposited data

Results flagged for a closer look

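The results below stood out because 1 array of a group of 4 lay far from the other 3, past Dixon's critical value for the ratio of its gap to the group's range. Of 180 groups of values 13 did so, and chance alone flags about 1 in 20 groups. No cause was tested.

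Sca1-Cre replicate 4 was far above its group for Gcsam, at 10.41 with the nearest array at 6.38, and for the germinal centre B cell score, at 2.04 with the nearest at 0.21. Sca1-Cre replicate 1 was low for Slc7a7 (7.65, nearest 8.18) and for the mitosis score (-1.49, nearest 0.57), and high for the immediate early score (1.21, nearest 0.19) and the Bcl2 family score (0.18, nearest 0.08). Sca1-Cre replicate 3 was low for Lcor (8.59), for the immunoglobulin constant score (-1.95, nearest -0.75) and for the MHC class II score (-0.99, nearest -0.10). In Aid-Cre, replicate 2 was high for Lcor (9.65, nearest 9.41) and for the spleen endothelium score (0.14, nearest -0.14), replicate 1 was low for C1ra (5.12, nearest 5.46) and replicate 4 was low for Slc7a7 (6.80, nearest 7.02). In each Slc7a7, Lcor and C1ra case the array stayed on its own group's side of the other group.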

How the results depend on the processing

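The count of called genes depended on the settings more than the differences did: over 25 alternatives the 10 called genes kept their direction, BC064078 stayed called in 20, Slc7a7 in 16, and the other 8 in 8 to 13. In place of 10 genes (9 lower, 1 higher in Aid-Cre), limma called 6 (5 lower) after quantile normalization, 17 (5 higher) after cyclic loess, 16 (15 lower) with either filter on dim genes, 39 (25 lower, 14 higher) over single probe sets, 2 (2 lower, 0 higher) with array weights, 2 with a sex covariate (2 lower, 0 higher), and 0 with only the 8 compared arrays, within male arrays, without Aid-Cre replicate 2 and Sca1-Cre replicate 4 together, or with the snoRNA level as a covariate, the last chosen after seeing the data. Median centring gave 8 and a variance trend 8. Leaving out both arrays with pancreatic transcripts, Mb1-Cre replicate 2 and wild-type replicate 2, gave 11 and was also chosen after seeing the data. Within female arrays 2 were higher. Leaving out 1 array gave 1 to 229 called, 1 to 193 lower and 0 to 36 higher. The 83 genes without overlap and with a difference of at least 1 became 295 single probe sets, 273 genes within females, and 79 to 154 when 1 array was left out. The causes were not tested.

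The replicate numbers do not pair the arrays: correlations of same-numbered deviations were -0.53, 0.26, -0.53 and 0.11. With the replicate block limma called 0 genes (0 lower, 0 higher), with 2701 at an unadjusted p under 0.05.

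Of named genes, Cd79a turned to 0.70 within males and 0.69 with the snoRNA covariate (-0.70 to 0.54 leaving out 1 array). It turned to 0.62 without Aid-Cre replicate 2 and Sca1-Cre replicate 4 together. Syk turned to -0.057 with array weights (-0.25 to 0.47), Rhoa to 0.024 after cyclic loess and 0.071 within males, and Arhgef1 to -0.10 within females (-0.14 to 0.31). List medians that moved by more than 1 SD of the list score between arrays were, within males (1 array against 2), MHC class I -0.088, T cell identity 0.39, T follicular helper -0.46, cytotoxic 0.16, type I interferon -0.56, neutrophil -2.50, dendritic 0.14, erythroid -1.32, exocrine pancreas -0.055, mitosis -2.16, DNA replication -1.29, p53 -0.26, Bcl2 family 0.087, NF-kB 0.16, immediate early 1.13 and snoRNA -0.35. Within that SD the sign also turned within males for B cell identity 0.70, B cell receptor signalling 0.13, marginal zone 0.30, MHC class II 0.30, macrophage 0.061, stem and progenitor -0.065 and HGAL partners 0.071, and follicular B cell reached 1.12. Within females the medians past 1 SD were plasma cell -0.76, cytotoxic -1.13, p53 -0.35, Bcl2 family -0.062 and snoRNA -1.11. Within that SD the sign turned for neutrophil 0.12, mitosis 0.96, DNA replication 0.31 and immediate early -0.22, and follicular B cell reached -0.64 and erythroid 1.25. The filter at the median gave surrogate light chain 0.36, dendritic -0.28 and exocrine pancreas 0.22, and that at the 40th percentile dendritic -0.26 and exocrine pancreas 0.22. The snoRNA covariate gave regulatory T cell -0.20, dendritic 0.073, spleen endothelium 0.38 and exocrine pancreas 0.82. Without Aid-Cre replicate 2 and Sca1-Cre replicate 4 together p53 was -0.28, Bcl2 family -0.058 and unfolded protein response -0.25. Leaving out 1 array, activated B cell-type lymphoma ran from -0.39 to -0.13, dendritic from -0.20 to 0.061 and p53 from -0.29 to 0.071. Differences of probe sets near background understate true ones, and 4 arrays in a group limit all tests.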

Other observations

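Some further genes of the secretory pathway, picked for their values and so no test of that pathway, lay on the lower side in Aid-Cre tumours without being called. Spcs3 and Spcs2, subunits of the signal peptidase that trims new secretory proteins, differed by -0.72 and -0.62 (limma adjusted p = 0.0619 and 0.0809). Sar1b, the GTPase that starts assembly of the COPII coat to which Sec24d belongs, stood at -0.88 (limma adjusted p = 0.0699). Ostc, a subunit of the glycosylation complex, stood at -0.71 (limma adjusted p = 0.0888), the disulfide isomerase Pdia3 at -0.52 (0.0931), the lectin Mlec at -0.54 (0.0944) and Cnpy2 at -0.73 (0.0728), as limma adjusted p-values.

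Tmem126a, an assembly factor of respiratory complex I, stood at -1.34 (limma adjusted p = 0.0545), and the ribosomal protein gene Rpl3 at -1.23 (limma adjusted p = 0.0944). Rpl3, Rps20 and Nop56 are genes whose introns hold snoRNAs in mammals, and which transcripts their probe sets read was not tested. On the higher side Pias3, an inhibitor of Stat3, stood at 0.31 (limma adjusted p = 0.0948). In Aid-Cre tumours the vault RNA Vaultrc5 averaged 5.17 ± 0.55 against 6.17 ± 0.34 in Sca1-Cre (SD, n = 4 each; limma adjusted p = 0.0736), the direction of the snoRNAs and Y RNAs. These genes were chosen by their values and support no list.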
